A study of Mus musculus with 34 samples.

Results

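The CpG islands of genes of the bone morphogenetic protein (BMP) and transforming growth factor-beta (TGF-beta) pathway were followed through adult mouse tissues, embryos, embryonic stem (ES) cells, cells differentiated from them in vitro, teratomas and pancreatic endocrine cells. A probe was taken when its gene name was that of a BMP or GDF ligand, an activin subunit, Nodal, a TGF-beta ligand or latency protein, a receptor, a Smad, a named extracellular inhibitor or an Id gene. Bmp1, a protease, was taken with them by its name. This gave 602 probes of 50 genes, and runs of at least 3 probes with gaps of at most 500 bases formed 71 scored islands of 48 genes, among 13616 islands scored on the arrays. Another 8 runs were not scored, and with them Acvr1b and Lefty2. The islands held 3 to 20 probes (median 7) and spanned 259 to 3194 bases (median 866), 68 of them carried member probes alone, and 16 genes had more than 1 island. Genome positions are those in the array files, which name no build.

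Methylated DNA was precipitated with an antibody to 5-methylcytidine from sonicated genomic DNA (mDIP). Bound DNA in the red channel and input DNA in the green channel were then hybridised together on a mouse CpG island array, with 1 array per sample. Each island was given a methylation score (IMS), which averages over its probes the log ratio of bound over input expressed in standard deviations of its own array, so 0 is the array mean and 1 unit corresponded to 0.830 to 1.86 log2 units of the ratio (median 1.43). An IMS is an average over all cells and both alleles, so fewer methylated cells and less methylation per cell cannot be told apart, and because it also follows the number of CpGs under the probes, islands were not tested against one another. Of the 34 arrays, 16 were of normal tissues from mice aged 3 months (colon, pancreas, brain, kidney, liver, lung, muscle and spleen, 2 arrays each, from both sexes), and 5 were of embryos at 8.5, 9.5, 10.5, 11.5 and 12.5 days, 1 array each. Undifferentiated ES cells were lines EB5, J1 and TT2 (3 arrays). Differentiated ES cells had 5 arrays, made from embryoid bodies grown from TT2, cells treated with retinoic acid (TT2 by the labels, J1 by the study's methods), 2 of sorted definitive endoderm and 1 of sorted mesoderm. Endoderm and mesoderm came from 1 reporter line that carries GFP at Gsc and human CD25 at Sox17, was made from EB5 and was exposed to Activin A, itself a TGF-beta family ligand, for 6 days. The 2 teratomas grew in immunodeficient NOD-SCID mice from J1 by the labels and from other lines by the methods, and such a tumour also contains host vessels and stroma. Single arrays were made of β cells sorted by insulin staining from islets of Pdx1-GFP transgenic mice, of Min6, a β cell line from an insulinoma, and of αTC, an α cell line from a glucagonoma. The methods name C57Bl/6 as the strain of the mouse DNAs but give no strain for the single cell lines. Whether classes differ in genetic background can therefore not be told. No RNA was measured here, so the cell types could not be checked against marker genes.

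Ligands of this superfamily are secreted dimers that bring type I and type II serine/threonine kinase receptors together. BMPs and some GDFs act through Smad1, Smad5 and Smad9, while activins, Nodal and TGF-betas act through Smad2 and Smad3. Both branches share Smad4, and Smad6 and Smad7 restrain them. The pathway patterns the early embryo, and in mouse ES cells BMP signalling through the Id proteins helps to hold cells undifferentiated, whereas activin and Nodal signals drive cells to mesoderm and endoderm. Most of its genes start in CpG islands, which are normally unmethylated.

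The genes here are those with probes on a CpG island array, so a high count of CG dinucleotides, the sites that can be methylated, follows from that choice and is no property of the pathway. In RefSeq sequence of GRCm38.p6, a different coordinate system from that of the array files, 35 of the 50 genes had 43 promoters of 300 bases (250 before to 50 after the start), which held a median of 26 CG dinucleotides against 7 over all 32851 promoters, and 94.6% of all promoters held at least 1. Printed here are the promoters of Gdf7, which had the island with the greatest change in differentiated ES cells, of Smad9 and Tgfbr2, whose start islands scored higher there, of Fstl4, whose start island was high in Min6, and of Id4, low in nearly every sample. Each runs 5′ to 3′ on the gene's strand with every CG in capitals. Gdf7 lies at chr12:8301905-8302204 on the minus strand, Smad9 at chr3:54755332-54755631 on the plus strand, Tgfbr2 at chr9:116175314-116175613 on the minus strand, Fstl4 at chr11:52764456-52764755 on the plus strand and Id4 at chr13:48260866-48261165 on the plus strand.
Gdf7: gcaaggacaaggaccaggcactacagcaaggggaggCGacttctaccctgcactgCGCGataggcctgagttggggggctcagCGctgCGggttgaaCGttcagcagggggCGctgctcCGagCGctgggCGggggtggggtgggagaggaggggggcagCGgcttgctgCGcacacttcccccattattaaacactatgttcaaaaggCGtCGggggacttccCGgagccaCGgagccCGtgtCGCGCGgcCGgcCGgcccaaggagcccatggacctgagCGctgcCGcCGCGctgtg
Smad9: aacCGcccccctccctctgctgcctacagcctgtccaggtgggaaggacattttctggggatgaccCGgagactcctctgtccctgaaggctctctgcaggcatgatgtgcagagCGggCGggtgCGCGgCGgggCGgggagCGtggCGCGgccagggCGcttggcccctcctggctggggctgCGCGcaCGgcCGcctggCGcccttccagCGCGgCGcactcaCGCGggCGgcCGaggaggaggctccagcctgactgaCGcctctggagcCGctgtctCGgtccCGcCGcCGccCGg
Tgfbr2: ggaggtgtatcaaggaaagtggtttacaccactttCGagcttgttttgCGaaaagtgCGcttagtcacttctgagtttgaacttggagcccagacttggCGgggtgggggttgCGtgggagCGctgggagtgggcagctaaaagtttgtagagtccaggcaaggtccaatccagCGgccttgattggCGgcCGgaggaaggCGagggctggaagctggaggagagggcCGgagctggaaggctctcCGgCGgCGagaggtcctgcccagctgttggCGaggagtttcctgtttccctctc
Fstl4: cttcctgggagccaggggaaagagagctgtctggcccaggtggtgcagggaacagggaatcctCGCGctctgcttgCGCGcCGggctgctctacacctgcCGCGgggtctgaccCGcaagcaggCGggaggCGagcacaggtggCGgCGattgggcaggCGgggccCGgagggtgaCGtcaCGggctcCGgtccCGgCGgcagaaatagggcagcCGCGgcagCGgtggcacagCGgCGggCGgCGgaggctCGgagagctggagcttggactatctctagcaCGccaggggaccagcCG
Id4: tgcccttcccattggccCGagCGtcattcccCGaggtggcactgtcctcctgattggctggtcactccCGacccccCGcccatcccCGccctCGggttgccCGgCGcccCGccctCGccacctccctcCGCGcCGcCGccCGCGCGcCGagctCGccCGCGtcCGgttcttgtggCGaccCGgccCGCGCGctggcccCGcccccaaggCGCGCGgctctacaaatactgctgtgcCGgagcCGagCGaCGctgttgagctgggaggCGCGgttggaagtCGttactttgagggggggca
They hold 26 CGs in Gdf7, 31 in Smad9, 15 in Tgfbr2, 29 in Fstl4 and 39 in Id4. As many CGs or more occur in 16.9%, 10.6%, 34.6%, 12.9% and 4.45% of all promoters, respectively. The palindrome CG reads the same on both strands, and its count says nothing by itself of whether a site is methylated.

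The array labelled J1 went against its label. It correlated across the 13616 islands at r = 0.965 with the second pancreas array, and only 1 of all 561 array pairs correlated more closely, while its r was 0.793 with EB5 and 0.799 with TT2, which correlated at 0.881 with each other. Its scanner values correlated at only 0.113 with the column of values deposited for it, against 0.894 to 0.991 for the other arrays. Results on undifferentiated ES cells are therefore given with and without it. In the other class comparisons it stayed in the shared fit, and so in the spread behind their standard errors and p-values. The labels do not say whether arrays of 1 class came from separate animals or cultures, so p-values measure only the spread between these arrays. The arrays lay on 23 slides, of which 2 held a differentiated ES array beside an adult one and 1 held EB5 beside an adult one. No embryo array shared a slide with an adult or a differentiated ES array, and only that of 8.5 days shared one with an undifferentiated ES array (TT2). With slide as a block, embryos are therefore linked to the other classes through that slide alone. The median signal was 3.07 to 7.34 times background for input and 1.54 to 5.59 times for bound DNA, and the number of arrays limits the precision.

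In adult tissues the pathway's islands fell into a low majority and a high minority, and the high ones lay inside genes. All 37 islands over a gene start had adult mean IMS values between -0.598 and 0.180 (median -0.217). The 6 upstream islands lay between -0.299 and -0.0262, and 4 downstream ones between -0.368 and 0.805. The 24 islands inside genes ranged from -0.790 to 3.22. All 9 islands with an adult mean above 1 were among these 24, the lowest of them at 1.54, while the other 62 islands reached at most 0.805. The same 9 islands exceeded 0.75 on all 16 adult arrays (12.7% of the 71, against 7.37% of all islands). In contrast, 16 islands were below 0 on all 16 adult arrays (22.5% against 29.8% of all islands).

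**Figure D1:**
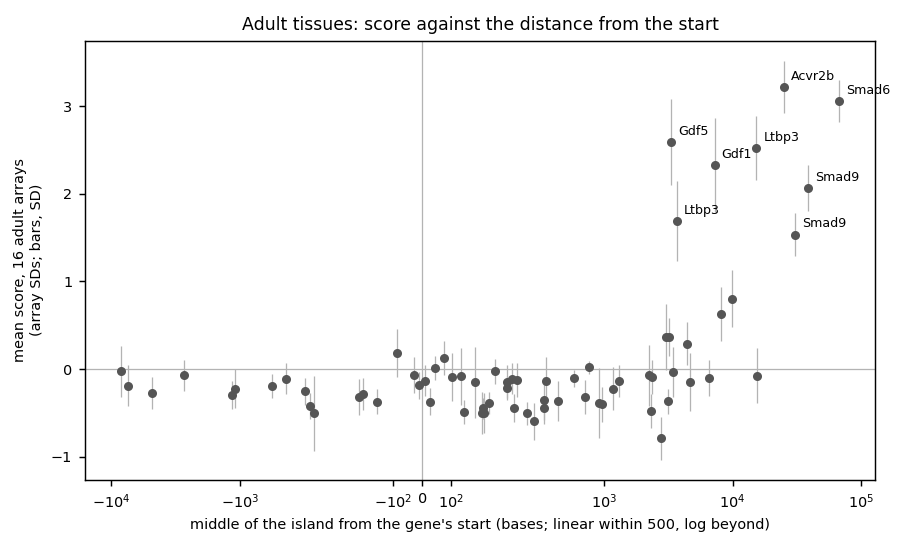
Mean IMS over 16 adult arrays (vertical axis, in standard deviations of the array) of 70 of the 71 pathway islands, plotted against the distance of the island from the start of its gene in bases. The 8 plotted islands above 1 all lie inside genes, and the 37 islands over a start stay at or below 0.180.

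Islands are named here by gene and, where a gene has several, by the distance in bases of the first probe from the gene's start. The highest adult mean was at Acvr2b +24925 (chr9:119276101-119276462, 3 probes), inside the gene of an activin type II receptor, at 3.22 ± 0.30 (SD, n = 16). Smad6 +67255 (chr9:63751522-63752096, 6 probes), in the gene of the inhibitory Smad of the BMP branch, followed at 3.06 ± 0.24. Gdf5, a ligand of joint and cartilage formation, was at 2.59 ± 0.49 (chr2:155633186-155633780). Ltbp3 +14696, in the gene of a protein that holds latent TGF-beta in the matrix, was at 2.52 ± 0.36 (chr19:5756800-5758176). Others above 1 were Gdf1 +6539 (13 of its 20 probes carry the name of Gdf1 alone), Smad9 +38614, Ltbp3 +3419 and Smad9 +30486, with means from 2.33 down to 1.54. At Acvr2b, Smad6 and Smad9 the start island of the same gene stayed low, with adult means of -0.39, -0.42 and -0.082.

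The lowest adult means belonged to Fstl3, which binds activins (-0.79 ± 0.25, chr10:79182984-79183445), and to Id1 +4 (-0.60 ± 0.21, chr2:152427691-152428518). Id4 (-0.51 ± 0.13, chr13:48273000-48274458), Fstl4, a follistatin-like gene (-0.51 ± 0.24, chr11:52607894-52608785), and Smad4 (-0.50 ± 0.43, chr18:73829237-73829744) came next. Id1 and Id4 encode dominant-negative partners of basic helix-loop-helix factors and are direct BMP targets. No pathway island differed among the 8 tissues at an adjusted p under 0.05 (limma F-test), against 11 of all 13616 islands (0.0808%). At an unadjusted p under 0.05 5 passed, a level for which the share over all islands is not given. With 2 arrays a tissue, a p that misses the threshold does not show that tissues are alike. The smallest p, 0.0174, was at Gdf7 +2972, where tissue means ran from -0.33 in pancreas to 0.41 in colon. With the grid as a block no pathway island was called among tissues either, though many more of all islands were.

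**Figure D2:**
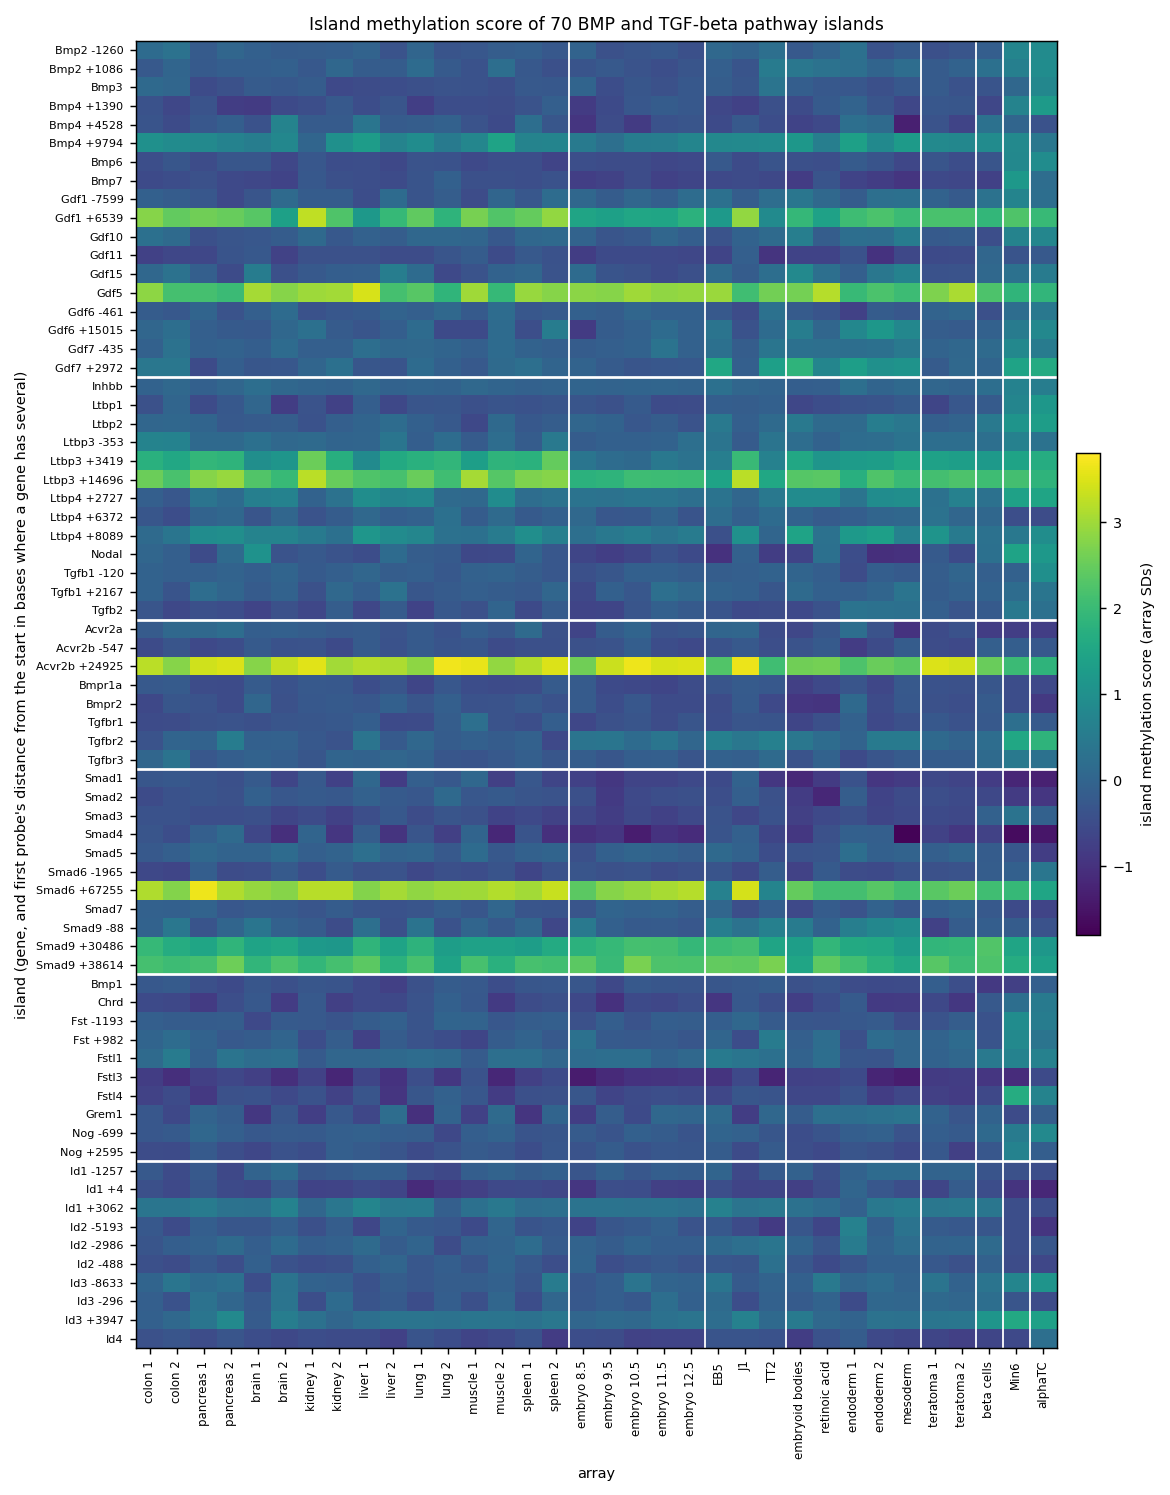
Heat map of IMS (colour, in standard deviations of the array) for 70 of the 71 pathway islands (rows, grouped by role) on the 34 arrays (columns, grouped by sample class). Most rows are low throughout, and the array labelled J1, at -0.110 and 3.44, looks like the adult columns and unlike EB5 and TT2 at Gdf7 +2972 and Smad6 +67255.

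The central comparison asks whether cells differentiated from ES cells in culture carry the methylation of normal tissue. Against the 16 adult arrays, 18 of the 71 pathway islands differed on the 5 differentiated ES arrays (25.4%), 13 higher and 5 lower, at an adjusted p under 0.05 (limma). Over all islands the share was 23.2%, with 14.4% higher and 8.73% lower, so the count for the pathway lay near the background. The median difference was -0.044 over the pathway islands and -0.0099 over all. By role, islands of BMP and GDF ligands accounted for 7 of the 13 higher ones and 1 of the lower (18 islands). Latency proteins and TGF-beta, activin and Nodal ligands had 3 higher of 13, receptors 1 higher and 1 lower of 8, and Smads 1 higher and 3 lower of 11. Extracellular inhibitors, counted with the protease Bmp1, had 1 higher of 11. None of the 10 Id islands passed. On log2 ratios that were centred but not scaled per array, the split was 4 higher and 4 lower, and after normexp background correction it was 7 and 1.

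**Figure D3:**
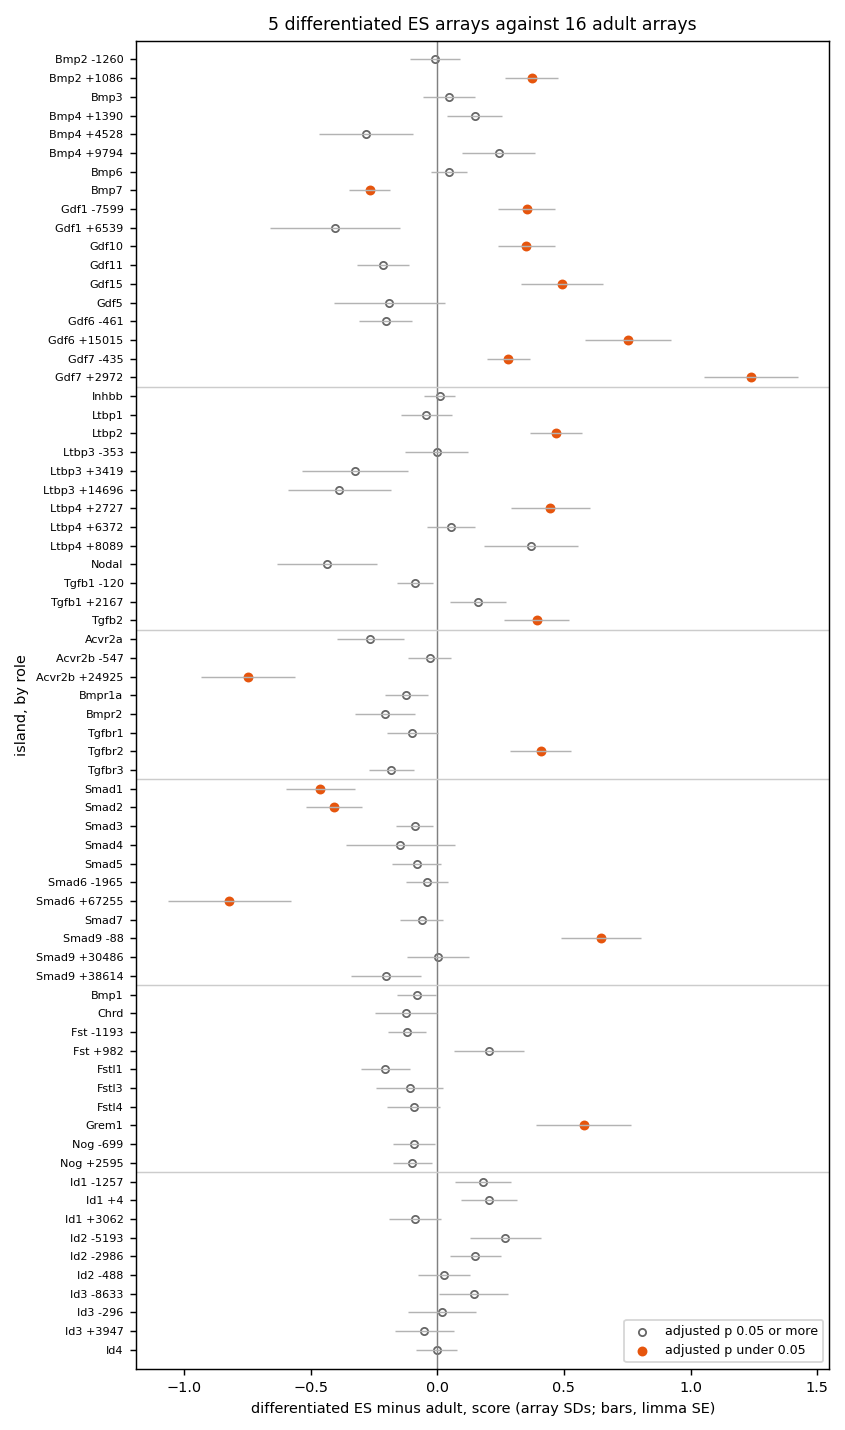
Difference in mean IMS between 5 differentiated ES arrays and 16 adult arrays, with its standard error, for 70 of the 71 pathway islands grouped by role. Gdf7 +2972 lies farthest to the right at +1.24, and Smad6 +67255 and Acvr2b +24925 farthest to the left at -0.82 and -0.75.

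Gdf7 encodes a BMP family ligand of the dorsal neural tube, and its island inside the gene moved farthest. At Gdf7 +2972 (chr12:8323978-8325013, 10 probes) the IMS was 1.84 in embryoid bodies, 0.748 after retinoic acid, 1.35 and 1.01 in the 2 endoderm arrays and 1.08 in mesoderm. The adult arrays ran from -0.519 through a median of -0.0385 to 0.414. All 5 differentiated values lay above every adult value, and the means differed by +1.24 ± 0.186 (SE, adjusted p = 1.05e-05). The difference held with each array left out, with slide or scan day as a block and in every other setting in which it was computed. On shared slides it was +1.53 for endoderm 2 against pancreas 1 and +2.11 for embryoid bodies against brain 2. The second Gdf7 island, over the start whose promoter is printed above (Gdf7 -435, chr12:8327414-8328419), differed by +0.28 ± 0.086 (adjusted p = 0.0172), and the call was lost without the mesoderm array.

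Gdf6, a relative of Gdf7 and a ligand of skeletal and eye development, showed its change at an island far inside the gene. At Gdf6 +15015 (chr4:9786507-9787288, 7 probes) the values were 0.570 in embryoid bodies, 0.0430 after retinoic acid, 0.801 and 1.17 in endoderm and 0.801 in mesoderm. Adult values ran from -0.552 through -0.107 to 0.556. The retinoic acid array lay among the adult ones and the other 4 above all of them, with a difference of +0.75 ± 0.170 (adjusted p = 0.00151). With slide as a block the adjusted p was 0.0896.

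Smad9, a receptor-activated Smad of the BMP branch, changed at its start. At Smad9 -88 (chr3:54843400-54843891, 5 probes) embryoid bodies were at 0.527, retinoic acid at -0.0386, endoderm at 0.603 and 0.783 and mesoderm at 0.943. The adult arrays ran from -0.615 through -0.0522 to 0.428, so that again the retinoic acid array alone fell within them. The difference was +0.65 ± 0.158 (adjusted p = 0.00324) and was kept in every setting in which it was computed. The 2 islands inside Smad9 did not pass, and at Smad9 +30486 the 5 differentiated values, 1.27 to 1.91, all lay within the adult range of 1.17 to 1.96.

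Ltbp2, a latent TGF-beta binding protein related to fibrillins, was the remaining island whose call was kept in every setting. Over its start (chr12:85765359-85766535, 10 probes) the values were 0.463 in embryoid bodies, 0.133 after retinoic acid, 0.144 and 0.573 in endoderm and 0.414 in mesoderm. Adult arrays ran from -0.590 through -0.128 to 0.178, below 3 of the 5 differentiated values. The difference was +0.47 ± 0.104 (adjusted p = 0.00123).

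The 2 largest decreases were at the islands with the highest mean IMS in adult tissue. At Smad6 +67255 the differentiated arrays read 2.47, 2.12, 2.12, 2.35 and 2.13 in the order embryoid bodies, retinoic acid, endoderm 1, endoderm 2 and mesoderm. Adult arrays read 2.75 at the lowest, 3.04 at the median and 3.67 at the highest, so the groups did not overlap, and IMS fell by 0.82 ± 0.244 (adjusted p = 0.0139). At Acvr2b +24925 the same order gave 2.58, 2.63, 2.24, 2.52 and 2.40 against 2.78, 3.20 and 3.68 in adult tissue, again without overlap, and IMS fell by 0.75 ± 0.186 (adjusted p = 0.00373). Both islands remained far above the array mean in every differentiated culture. Both calls held with each differentiated array left out. With slide as a block that of Smad6 held (adjusted p = 0.0201) and that of Acvr2b was lost (adjusted p = 0.0678), and with scan day as a block both were lost (adjusted p = 0.139 and 0.106). Both were also lost after normexp correction (adjusted p = 0.158 and 0.0865) and kept on log2 ratios (adjusted p = 0.0305 and 0.0163).

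Start islands of 3 further genes scored lower in differentiated cells, from a level that was already below the array mean. Smad1, the partner of Smad9 in BMP signalling, fell by 0.46 ± 0.136 (adjusted p = 0.0130, chr8:82294497-82295734). Smad2, which carries activin, Nodal and TGF-beta signals, fell by 0.41 ± 0.110 (adjusted p = 0.00705, chr18:76366422-76367335). Bmp7, a ligand of kidney and eye development, fell by 0.27 ± 0.0803 (adjusted p = 0.0148, chr2:172581961-172583645). In each of the 3, 4 of the 5 differentiated values lay below every adult value. Leaving out embryoid bodies ended the call for Smad1 and for Bmp7, leaving out mesoderm ended that for Bmp7, and leaving out retinoic acid ended that for Smad2.

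The other 8 higher islands differed by +0.35 to +0.58. Grem1, a secreted BMP antagonist, stood at +0.58 ± 0.188 (adjusted p = 0.0245) and Gdf15, a divergent ligand induced by stress, at +0.49 ± 0.162 (adjusted p = 0.0272). Ltbp4 +2727 was at +0.45 ± 0.156 (adjusted p = 0.0371), Tgfbr2, the type II receptor of TGF-beta, at +0.41 ± 0.121 (adjusted p = 0.0140) and Tgfb2, a ligand of heart and palate development, at +0.39 ± 0.127 (adjusted p = 0.0246). Bmp2 +1086, inside the gene of a ligand of bone and heart formation, was at +0.37 ± 0.104 (adjusted p = 0.00936), and Gdf1 -7599 and Gdf10 both at +0.35. At Tgfbr2 all 5 differentiated values lay inside the adult range of -0.570 to 0.554, so the call there rests on the means. Of these 8, only Bmp2 +1086 stayed called with each differentiated array left out in turn. Its call was lost with slide or scan day as a block (adjusted p = 0.233 and 0.0710). It was also lost on log2 ratios (adjusted p = 0.0708) and after normexp correction (adjusted p = 0.160). Leaving out mesoderm ended the other 7 calls, leaving out endoderm 2 ended 6 of them (all but Gdf10), leaving out embryoid bodies ended those of Gdf15, Ltbp4, Gdf1 and Gdf10, leaving out endoderm 1 those of Grem1 and Tgfb2 and leaving out retinoic acid that of Ltbp4.

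At Grem1 and Tgfb2 the size of the difference moved with the batch. With slide as a block it was +0.21 at Grem1 (adjusted p = 0.424) and +0.28 at Tgfb2 (adjusted p = 0.343), and with scan day as a block +0.13 (adjusted p = 0.619) and +0.099 (adjusted p = 0.746). The arrays were made on 2 grids of probes, and in 6 adult tissues (brain, kidney, liver, lung, muscle and spleen) replicate 1 lay on the grid of 97651 probes and replicate 2 on that of 88737. In all 6 of these tissues replicate 1 read lower than replicate 2, by 0.519 to 1.00 at Grem1 and by 0.238 to 0.453 at Tgfb2. On the larger grid alone, with 2 differentiated and 10 adult arrays, the difference was +0.86 at Grem1 and +0.84 at Tgfb2, and on the smaller grid, with 3 and 6, it was +0.18 and -0.027. Smad9 -88 and Smad1, also called, read higher in replicate 1 in all 6 tissues, by 0.265 to 0.737 and by 0.133 to 0.875. Their differences were +0.60 and -0.45 on the larger grid and +0.85 and -0.31 on the smaller. With the grid as a block all 4 calls were kept, with +0.49 at Grem1 (adjusted p = 0.0369) and +0.37 at Tgfb2 (adjusted p = 0.0372). In the 6 tissues replicate 1 was scanned on 1 day and replicate 2 on 3 others, so grid and scan day cannot be told apart there. The part of the grid in the values of these 4 islands was not tested beyond this.

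The total count moved with the arrays in the same way, from 9 called islands without mesoderm and 12 without embryoid bodies or endoderm 2 to 21 without retinoic acid. With slide as a block 10 islands were called, 5 in each direction, 8 of which were among the 18 (Smad9 -88, Gdf15, Smad1, Smad6 +67255, Gdf7 +2972, Ltbp2, Gdf10 and Smad2). For these changed counts the share over all islands is not given. With scan day as a block 8 of the 18 kept their call, Tgfbr2 in place of Smad6 +67255, and with the grid as a block 17 did, Ltbp4 +2727 being lost (adjusted p = 0.0596). On the larger grid alone 18 of the 18 had the direction of the full comparison, and on the smaller 17. Between arrays on the same slide, endoderm 2 minus pancreas 1 had the direction of the full comparison at 18 of the 18 islands, and embryoid bodies minus brain 2 at 17 of 18, Tgfb2 being the exception.

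**Figure D4:**
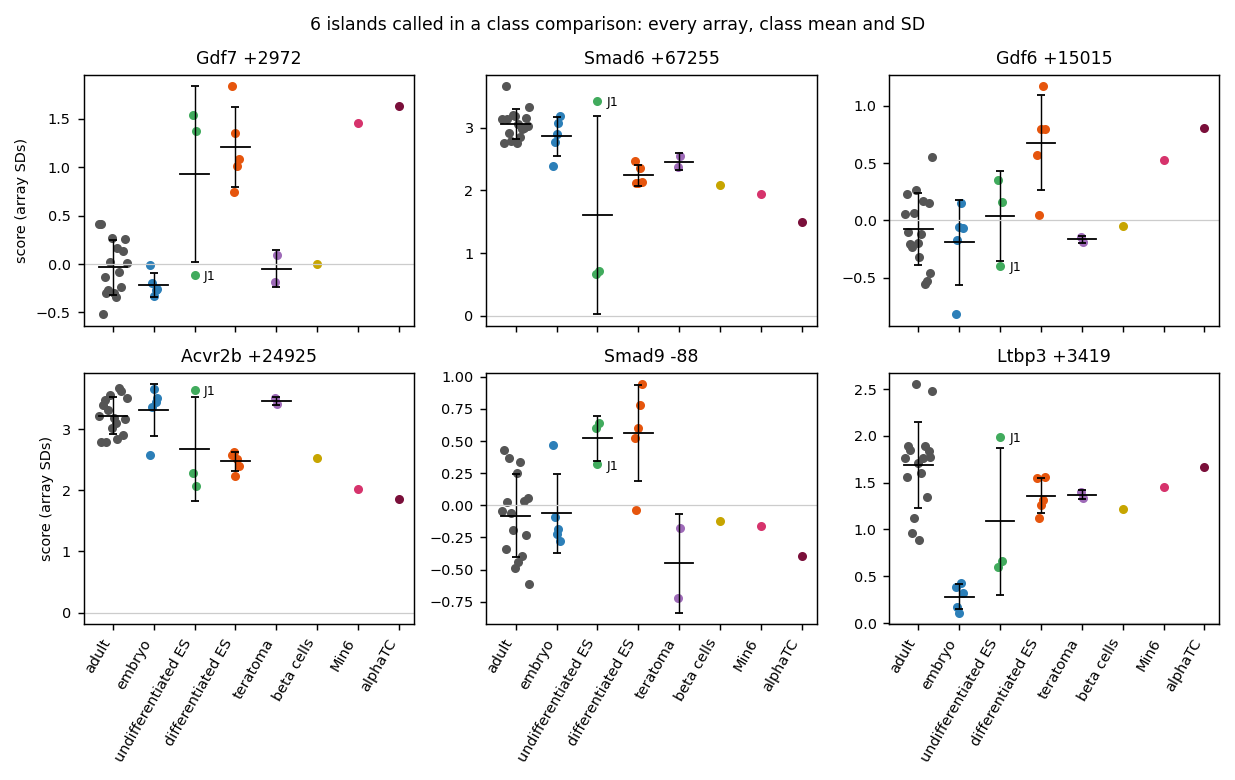
IMS (vertical axis, in standard deviations of the array) on every array, by sample class, of the islands Gdf7 +2972, Smad9 -88, Gdf6 +15015, Smad6 +67255, Acvr2b +24925 and Ltbp3 +3419, with the class mean and SD where a class has several arrays and the array labelled J1 marked. At Gdf7 +2972 the 5 differentiated arrays, EB5, TT2, Min6 and αTC lie above every adult array, and the array labelled J1 does not.

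In undifferentiated ES cells the question is whether the difference is already there. At Gdf7 +2972 EB5 read 1.54 and TT2 read 1.37, both above every adult array, while the array labelled J1 read -0.110. With all 3 arrays the difference from adult tissue was +0.96 ± 0.228 (adjusted p = 0.0217), and without the array labelled J1 it was +1.48 (adjusted p = 1.07e-05). At Smad6 +67255 EB5 read 0.667, TT2 read 0.716 and the array labelled J1 read 3.44, against 2.75 to 3.67 in adult tissue. IMS fell by 1.45 ± 0.299 there with all 3 arrays (adjusted p = 0.0103) and by 2.37 without the array labelled J1 (adjusted p = 1.42e-10). Tgfbr2 read 0.635 for EB5, 0.641 for TT2 and 0.427 for the array labelled J1, the last within the adult range. It differed by +0.66 ± 0.148 with all 3 arrays (adjusted p = 0.0169). Without the array labelled J1 it differed by +0.73 and the call was kept.

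These were the only 3 pathway islands called with all 3 arrays (4.23%, against 2.3% of all islands), 2 higher and 1 lower (0.984% and 1.31% of all islands). Without the array labelled J1, 8 were called, 2 higher and 6 lower (background 8.45%), and without EB5 or without TT2 none was. The 5 further ones, all lower, were islands inside genes, 4 of them among the 9 with an adult mean above 1. Gdf1 +6539 fell by 1.28, Ltbp3 +3419 by 1.05, Ltbp3 +14696 by 1.04, Acvr2b +24925 by 1.04 and Ltbp4 +8089 by 0.83. Their adjusted p values ran from 0.00208 at Acvr2b to 0.0255 at Ltbp4. EB5 minus pancreas 2, on a shared slide, was +1.67 at Gdf7 +2972, -2.48 at Smad6 +67255 and +0.081 at Tgfbr2. With slide as a block the calls at Gdf7 and Smad6 held and that at Tgfbr2 was lost (+0.081, adjusted p = 0.963). With scan day as a block none of the 71 islands was called.

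The direct comparison with undifferentiated cells included the array labelled J1. In it differentiated ES cells scored lower at 2 pathway islands and higher at none (2.82%, against 5.43% of all islands, of which 3.51% higher and 1.92% lower). Smad9 +38614 fell by 0.65 ± 0.198 (adjusted p = 0.0488) and Fstl1, a secreted follistatin-like protein, fell by 0.46 ± 0.137 over its start (adjusted p = 0.0457). In both, the 5 differentiated values lay below the 3 undifferentiated ones, yet leaving out any 1 of the 3 undifferentiated arrays ended either call, as did leaving out embryoid bodies, endoderm 2 or mesoderm, and for Fstl1 also endoderm 1. With slide or scan day as a block both calls were lost. Without the array labelled J1 both were also lost (at Smad9 +38614 -0.70, adjusted p = 0.0845), and the share over all islands is not given for that fit. In the same fit Smad6 +67255 was higher in differentiated than in undifferentiated cells by 1.55 (adjusted p = 2.54e-05). The IMS there was thus 0.667 and 0.716 in EB5 and TT2, 2.12 to 2.47 after differentiation and 2.75 or more in adult tissue. At Ltbp4 +8089 the corresponding difference was +1.20 (adjusted p = 0.00931). Without the retinoic acid array 7 islands were called, a count for which the share over all islands is not given.

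The embryos show the same genes during development in vivo. Against adult tissue, 3 of 71 islands differed (4.23%, against 8.64% of all islands), 1 higher and 2 lower (5.17% and 3.47% of all islands). Ltbp3 +3419 (chr19:5745523-5746108, 5 probes) stood out, with 0.386, 0.170, 0.112, 0.433 and 0.316 from 8.5 to 12.5 days. Adult arrays ran from 0.886 through 1.76 to 2.55, with no overlap, and embryo IMS fell by 1.40 ± 0.209 relative to adult tissue (adjusted p = 5.95e-05). The start island of the same gene, Ltbp3 -353, was not called in any comparison. EB5 and TT2 were at 0.600 and 0.667 at Ltbp3 +3419, between the embryos and every adult array. Gdf1 +6539, a ligand of left-right patterning, fell by 0.80 ± 0.257 in embryos relative to adult tissue (adjusted p = 0.0485), a call that leaving out any 1 embryo array ended, and Smad9 +30486 rose by 0.45 ± 0.123 (adjusted p = 0.0173), a call that leaving out the array of day 10.5 or of day 11.5 ended. No embryo array shared a slide or a scan day with an adult array, so no difference within either can be given, and with slide or scan day as a block no island was called. With scan day as a block the difference turned to +0.45 at Gdf1 +6539 and shrank to -0.46 at Ltbp3 +3419 (adjusted p = 1.0 at both). On the smaller grid, which held all 5 embryo arrays and 6 adult ones, it was -1.49 at Ltbp3 +3419, -0.57 at Gdf1 +6539 and +0.57 at Smad9 +30486, and with the grid as a block the call at Gdf1 was lost (adjusted p = 0.315).

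Differentiated ES cells differed from embryos at 12 of the 71 islands (16.9%, against 21.1% of all islands), 10 higher and 2 lower (11.8% and 9.29% of all islands). At Gdf7 +2972 the embryos read -0.0101, -0.191, -0.334, -0.273 and -0.260 from 8.5 to 12.5 days, below every differentiated value, with a difference of +1.42 ± 0.229 (adjusted p = 5.71e-05). Ltbp3 +3419 was 1.55, 1.13, 1.27, 1.31 and 1.56 in embryoid bodies, retinoic acid, endoderm 1, endoderm 2 and mesoderm, also without overlap (+1.08 ± 0.257, adjusted p = 0.00331). These values lay inside the adult range. Gdf6 +15015 (+0.87), Gdf15 (+0.73), Smad9 -88 (+0.62), Bmp2 +1086 (+0.59) and Bmp4 +9794, downstream of the gene of a ligand that specifies ventral mesoderm (+0.52), were also higher, at adjusted p values of 0.00162 to 0.0339. Acvr2b +24925 fell by 0.84 ± 0.229 relative to embryos (adjusted p = 0.00955).

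Of the remaining 4, Ltbp2, Gdf10 and Gdf7 -435 were higher and Smad9 +30486 lower. The calls at Smad9 -88, Bmp4 +9794, Gdf10, Gdf7 -435 and Smad9 +30486 were each ended by leaving out mesoderm and by leaving out any of 3 or 4 of the embryo arrays. Leaving out embryoid bodies ended all of these but Smad9 -88, leaving out endoderm 2 those of both Smad9 islands and Gdf7 -435, and leaving out endoderm 1 that of Bmp4 +9794. Without the embryo of 10.5 days 7 islands were called in all. With slide as a block no island was called, and the difference at Ltbp2 turned from +0.50 to -0.021. Embryos entered that estimate only through the slide shared with TT2. On it TT2 minus the embryo of 8.5 days was +0.085 at Ltbp2 and +1.38 at Gdf7 +2972. With scan day as a block 2 were called (Bmp2 +1086 and Gdf7 +2972), and the difference at Ltbp3 +3419 shrank to +0.095 (adjusted p = 0.980). With the grid as a block 11 of the 12 kept their call, Smad9 -88 being lost, and on log2 ratios the split of calls was 5 higher and 5 lower. None of these counts under other settings has the share over all islands beside it.

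Teratomas, formed from ES cells inside an animal, differed from adult tissue at none of the 71 pathway islands by limma (1 passed at an unadjusted p under 0.05, and 2 by the t-test of the study's methods without adjustment), and at 26 of all islands (0.191%, of which 0.176% higher and 0.0147% lower). Against differentiated ES cells 3 pathway islands were called (4.23%, against 6.81% of all islands), 1 higher and 2 lower (1.53% and 5.27% of all islands). At Gdf7 +2972 the teratomas read -0.184 and 0.0911, below all 5 differentiated values, and the difference was -1.25 ± 0.299 (adjusted p = 0.00950). At Smad9 -88 they read -0.722 and -0.179, a difference of -1.01 ± 0.260 (adjusted p = 0.0158). At Acvr2b +24925 they read 3.51 and 3.41, above all 5 differentiated values by 0.99 ± 0.298 (adjusted p = 0.0408). With only 1 teratoma array kept, the calls at Gdf7 and Acvr2b were lost in either case and that at Smad9 without the first. The call at Acvr2b was also lost without embryoid bodies, mesoderm or either endoderm array, and without retinoic acid 6 islands were called (share over all islands not given). The differentiated group shared no slide or scan day with the teratomas, so batch and class cannot be told apart. By the labels and by the methods the teratomas also grew from other ES lines than the differentiated cultures. Line and class cannot be told apart either.

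β cells, Min6 and αTC had 1 array each, so their values carry no test. Of the 39 pathway islands below 0 in β cells, Min6 exceeded 0.75 at 7 (9.86% of the 71, against 3.97% of all islands), αTC at 9 (12.7%, against 6.11%) and both at 3 (4.23%, against 2.75%). Out of the islands below 0 in β cells, this was 17.9% in Min6 (6.58% of all such islands) and 23.1% in αTC (10.1%). A difference from β cells above 1 was found at 11 islands in Min6 (15.5%, against 6.98%) and at 11 in αTC (15.5%, against 9.75%). The 3 islands high in both were Gdf7 +2972 (β cells -0.00447, Min6 1.46, αTC 1.63), Bmp6 (-0.330, 0.821 and 0.929) and Bmp2 -1260 (-0.134, 0.759 and 0.906).

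Bmp6, a ligand known for its part in iron balance, was below 0 on all 16 adult arrays at this island, with a highest value of -0.278. Fstl4 was at -0.589 in β cells, 1.67 in Min6 and 0.696 in αTC. Bmp4 +1390 was at -0.599, 0.713 and 1.25. Ltbp1, a latency protein of TGF-beta, was at -0.181, 0.745 and 1.16 in the same order, and none of these 3 islands exceeded 0.0543 on an adult array. Further islands, singled out after their values were seen, were Tgfbr2 (0.209, 1.53 and 1.85), Nodal (0.272, 1.45 and 1.19) and Bmp7 (-0.713, 1.19 and 0.197).

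**Figure D5:**
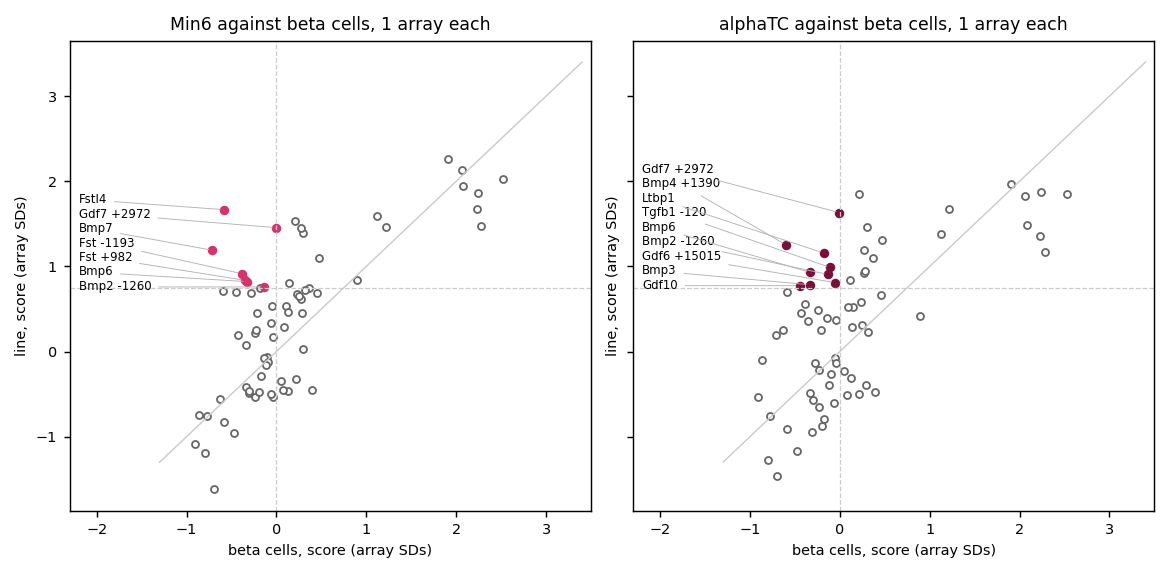
IMS of 70 of the 71 pathway islands in Min6 and in αTC (vertical axes) against IMS in sorted β cells (horizontal axes), all in standard deviations of the array, 1 array each. Gdf7 +2972 and Tgfbr2 lie well above the diagonal in both lines.

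Other genes of the pathway, taken from a list of 51 regulators, processing enzymes and targets, had 39 scored islands of 27 genes. In differentiated ES cells against adult tissue 8 were higher and 4 lower (30.8%, against 23.2% of all islands). Ski, a co-repressor that binds Smads, had the greatest change (chr4:153994251-153994981, 6 probes), with 1.85 in embryoid bodies, -0.0252 after retinoic acid, 1.59 and 1.93 in endoderm and 1.65 in mesoderm against -1.05 to 0.0343 in adult tissue. The retinoic acid array alone lay within the adult range, and the difference was +1.83 ± 0.208 (adjusted p = 1.49e-07). EB5 and TT2 were at -0.428 and -0.178 at this island, unlike at Gdf7 +2972, and the teratomas at -0.585 and -0.717. Ski stood at 0.477 in β cells, 2.19 in Min6 and 2.12 in αTC.

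Amh, the anti-Müllerian ligand, was higher in differentiated ES cells by 0.79 ± 0.174 and Chrdl2, a chordin-like BMP inhibitor, by 0.72 ± 0.166. Rgma, a BMP co-receptor, fell by 0.96 ± 0.266 and Bmper, a BMP-binding protein of vessels, by 0.45 ± 0.0770. All 4 had adjusted p values of 0.00878 or less. Against embryos 6 of the 39 islands were higher in differentiated ES cells and 2 lower (20.5%, against 21.1% of all islands).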

How the data were processed

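Methylated DNA immunoprecipitation was hybridised on 2-colour Agilent arrays. The authors deposited scanner output with background-subtracted intensity values of both dyes and their log10 ratio (Cy5 bound over Cy3 input) after linear normalisation, and a table of processed scores, by the study's methods Z-scores of probe log ratios that take melting temperature into account. The log10 ratios were read with Python 3.11.15 (pandas 2.3.3, numpy 2.4.6). Control and outlier spots were left out, values were turned into Z-scores per array and averaged per island. The study's correction for probe melting temperature was not applied. The grids held 97651 probes on 14 arrays and 88737 on 20.

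Class means were compared with limma 3.58.1 (R 4.3.3) on all 13616 islands and Benjamini-Hochberg adjustment. Differentiated, undifferentiated, embryo and adult arrays shared 1 fit of 29 arrays, and teratomas were added in a second. The fits were tested on simulated data. The members, roles and lists were chosen with earlier results of these data known. Named are all islands called in differentiated ES cells against adult tissue, up to 8 in other comparisons, the 5 highest and 5 lowest adult means and 6 islands of the cell lines. A further island of a named gene was added after its values were seen. The values of 1 island are not reported here, though it is counted. Alternatives covered island definition, scaling, background, batch (slide, scan day and grid) and arrays left out.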

Additional observations from a re-analysis of the deposited data

Results flagged for a closer look

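Sets of 5 arrays were examined for a single array far from the others, at 36 named islands in embryos and in differentiated ES cells. Of 72 sets, 6 had such an array. Chance gives about 1 in 20 for replicate arrays and islands chosen beforehand. Here the sets hold different days or cultures, and most islands were named for their values on these arrays. No excess over chance can therefore be read from the count. In embryos, Acvr2b +24925 read 2.58 at 8.5 days against 3.35 to 3.65 on the others, Smad9 -88 read 0.473 at 8.5 days against -0.282 to -0.0872, and Gdf7 -435 read 0.338 at 11.5 days against -0.178 to -0.0462. In differentiated ES cells, Gdf7 -435 read 0.469 in mesoderm against 0.228 to 0.277, Grem1 read -0.175 in embryoid bodies against 0.232 to 0.358, and Ltbp4 +2727 read 0.347 in the first endoderm array against 0.905 to 0.960. The embryo of 8.5 days was thus the distant array at 2 islands, both of which were called in comparisons with differentiated ES cells.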

How the results depend on the processing

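Counts of called pathway islands that moved by more than 1.5 times are given by setting. For most alternative settings, here and in the Results, the share over all islands is not given. A change in count therefore need not be particular to the pathway. For differentiated ES cells against adult tissue (18 called), centred log2 ratios gave 8, normexp (offset 50) on the median signals 8, the deposited values 9 of 39 islands, input well above background 11 and slide as a block 10. For undifferentiated ES cells against adult tissue (3 called), log2 ratios, normexp, scan day as a block, a fit of only these classes and the methods' t-test after adjustment each gave 0, the deposited values 9 and the unadjusted t-test 11. For embryos against adult tissue (3 called), islands of at least 5 probes gave 1, normexp 0, slide or scan day as a block 0, slide as a random block 1, only these classes 5 and the t-test 6 after adjustment and 14 before. For differentiated against undifferentiated ES cells (2 called), at least 5 probes, log2 ratios, normexp, slide as a random block, only these classes and the adjusted t-test each gave 0, Z-scores over the probes of both grids and scan day or grid as a block each gave 1, the deposited values 9 and the unadjusted t-test 6. For differentiated ES cells against embryos (12 called), at least 5 probes gave 6, normexp 3, the deposited values 7, slide as a block 0, scan day as a block 2 and the unadjusted t-test 19. For teratomas the unadjusted t-test gave 2 against adult tissue, and against differentiated ES cells (3 called) at least 5 probes and normexp each gave 1, 1 value per adult tissue gave 5, and the t-test 0 after adjustment and 8 before.

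With 1 array left out, the counts ran from 9 to 21 for differentiated ES cells against adult tissue, 7 to 17 against embryos and 0 to 7 against undifferentiated ES cells, from 0 to 8 for undifferentiated ES cells and 1 to 2 for embryos against adult tissue, from 0 to 6 for teratomas against differentiated ES cells and 0 to 0 against adult tissue. Among adult tissues every setting gave 0, the replicate block included, which called 8 of all islands against 11 without it, and the grid as a block, which called 322. Replicate numbers were not taken as pairs, since the labels do not say that they pair arrays. Correlations between tissues of the deviations of same-numbered arrays ran from -0.253 to 0.629 and 14 of 28 were over 0.1. Same-numbered arrays of some tissues thus deviated alike, and the cause was not tested. In the 6 tissues whose replicates differ in grid, replicate 1 was scanned on 1 day and replicate 2 on 3 others, and replicate 1 minus 2 had 1 sign at 8 of the 71 islands (at Smad4 from +0.41 to +1.18), while over all 8 tissues no island had. The share over all islands is given for neither count, so nothing particular to the pathway can be read from them.

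Of 379 values of the 18 islands called in differentiated ES cells against adult tissue, 296 kept their call and 83 lost it in the same direction. The causes were not tested, apart from the smaller number of islands or arrays in some settings. Over all islands the median log2 difference stayed between -0.087 and 0.047. normexp, Z-scores over both grids and the grid as a block were chosen after seeing the data. normexp on mean signals was not run, since 16 files hold no mean signals, and teratomas could not be fitted with slide or scan day as a block.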
